A study of Mus musculus with 2 samples.

Results

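Genes of sterol and fatty acid synthesis were followed in the gastrocnemius of mice lacking PGC-1β in myofibres, PGC-1β(i)skm-/-, and in that of their controls. The group holds 35 genes, taken by gene symbol from the array's annotation, of 19936 named nuclear genes measured. They comprise 7 genes of the mevalonate pathway, 11 of cholesterol synthesis from squalene onwards, 5 regulators of the SREBP transcription factors, 7 of fatty acid synthesis, 4 of triglyceride synthesis and Stard4, a cytosolic sterol carrier. All 35 had a probe set naming that gene alone.

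RNA from 3 mice was pooled for each of 2 arrays, 1 of PGC-1β(i)skm-/- and 1 of control muscle. The PGC-1β(i)skm-/- mice were C57BL/6 males with floxed PGC-1β alleles and a Cre-ERT2 transgene, and Cre-ERT2 was driven by the human skeletal actin promoter, so that exon 5 of PGC-1β was deleted in myofibres and not in the other cells of the muscle. Control littermates carried the same floxed alleles without the transgene, although the sample label reads wild-type. Tamoxifen was injected into all mice on 5 days (daily dose 1 mg) when they were 7 weeks old, and muscle was taken at 8 weeks, 1 week after the last dose. Because the transgene was present in mutants only, its own effect and that of the deletion cannot be told apart.

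Cells build cholesterol from acetyl-CoA through mevalonate and squalene, and fatty acids from acetyl-CoA through malonyl-CoA. Both routes are controlled by the SREBP factors, which the escort protein Scap carries to the Golgi for cleavage when sterols are low and which the Insig proteins hold back in the endoplasmic reticulum when sterols are high. PGC-1β is known as a coactivator of SREBP factors in liver, and skeletal muscle is not a main site of lipid synthesis. The question here is how these genes stood in muscle 1 week after the gene was ablated.

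Promoters of 3 mevalonate pathway genes are shown because these genes had the lowest and the highest differences of the whole group, Idi1 and Hmgcs1 being lower and Mvd higher on the PGC-1β(i)skm-/- array. Each runs from 250 bases before to 50 bases after the transcription start, 5′ to 3′ on the gene's strand, from RefSeq on GRCm38.p6. Capitals mark matches, on either strand, to the core of the sterol regulatory element TCACNCCAC, to the CCAAT box CCAAT bound by NF-Y, or to the GC box GGGCGG bound by Sp1. No E-box CACGTG was found in these 3 windows, and no marked matches overlapped.
Hmgcs1 (chr13:119690101-119690400, + strand): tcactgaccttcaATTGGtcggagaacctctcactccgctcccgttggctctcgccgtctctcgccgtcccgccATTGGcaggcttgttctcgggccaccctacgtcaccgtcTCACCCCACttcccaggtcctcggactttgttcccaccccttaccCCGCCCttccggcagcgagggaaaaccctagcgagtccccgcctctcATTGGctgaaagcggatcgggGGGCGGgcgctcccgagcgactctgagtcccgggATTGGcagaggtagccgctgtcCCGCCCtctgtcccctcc
Idi1 (chr13:8885356-8885655, + strand): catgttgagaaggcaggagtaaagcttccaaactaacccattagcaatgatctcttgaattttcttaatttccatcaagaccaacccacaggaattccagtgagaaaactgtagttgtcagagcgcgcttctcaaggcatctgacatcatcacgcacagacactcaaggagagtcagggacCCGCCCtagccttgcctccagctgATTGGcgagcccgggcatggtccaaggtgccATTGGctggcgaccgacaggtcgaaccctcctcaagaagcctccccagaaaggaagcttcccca
Mvd (chr8:122443373-122443672, - strand): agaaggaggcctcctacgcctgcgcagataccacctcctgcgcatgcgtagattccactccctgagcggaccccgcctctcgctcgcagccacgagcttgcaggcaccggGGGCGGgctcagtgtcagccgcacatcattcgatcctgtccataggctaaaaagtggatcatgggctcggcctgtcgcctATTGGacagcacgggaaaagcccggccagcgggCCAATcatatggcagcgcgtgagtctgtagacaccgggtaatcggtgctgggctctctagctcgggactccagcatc

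The Hmgcs1 window held 1 match to the sterol regulatory element core, TCACCCCAC, starting 137 bases before the transcription start, with 4 CCAAT boxes and 3 GC boxes. The windows of Idi1 and Mvd each held 2 CCAAT boxes and 1 GC box. A match is a description of the letters and not a bound site, and a window without one says nothing about the factor.

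As a check of the genotype, Ppargc1b, encoding PGC-1β, had a log2 signal of 7.06 in PGC-1β(i)skm-/- muscle and 7.87 in control muscle. Its ratio of 0.569 was the lowest of all 19936 genes. The probe set is summarized over the transcript and not limited to the deleted exon. Median log2 signals over all probe sets were 6.02 on the PGC-1β(i)skm-/- array and 6.00 on the control array. With 1 array per genotype no difference has an error or a test, so precision is limited by the number of arrays. The spread on these arrays was described in a pair of ways. Differences were taken as mutant minus control on the log2 scale, and their standard deviation was 0.12 over all genes, and among 997 genes with more than 1 probe set, the brightest and next probe set differed by a median of 0.06 and by 0.23 at the 90th percentile. Neither value shows the spread between mice.

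The median log2 difference was −0.03 over the 35 genes, against −0.0006 over all genes. Within 1.1-fold lay 27 of the 35 (77.1%), against 79.4% of all genes, so that the group as a whole was near the background in this respect. A ratio of 0.8 or less was reached by 1 gene, Idi1 (2.86%), against 0.652% of all genes, and a ratio of 1.2 or more by 0, against 1.64% of all genes. With a ratio of 1/1.2 or less, Hmgcs1 joined Idi1, giving 2 of 35 (5.71%) against 1.69% of all genes. At 1.1-fold, 6 of 35 (17.1%) were lower, against 10.1% of all genes, and 2 (5.71%) were higher, against 10.5% of all genes. A difference below 0 was found for 22 of 35 (62.9%), against 50.2% of all genes. These shares rest on few genes, so that 1 gene moves a share by 2.86 percentage points.

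**Figure D1:**
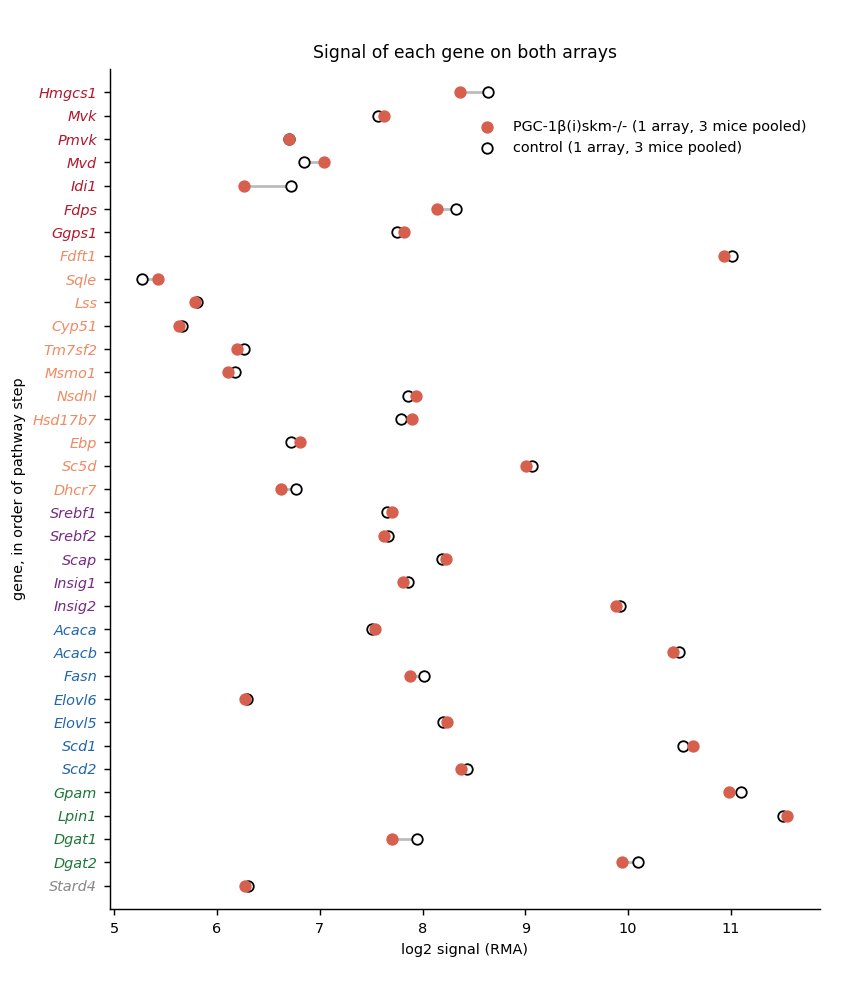
Log2 signal (horizontal axis) of the 35 genes in order of pathway step (vertical axis, coloured by group), with red points for the PGC-1β(i)skm-/- array and open points for the control array, each from 3 pooled mice. The gap between the points is widest for Idi1 (6.27 in PGC-1β(i)skm-/- and 6.72 in control muscle), and the positions of different genes are not comparable, since each gene has its own probes.

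In the mevalonate pathway, which makes the isoprenoid units of sterols, the genes differed in both directions. Hmgcs1, the HMG-CoA synthase of the cytosol, had log2 signals of 8.37 in PGC-1β(i)skm-/- and 8.63 in control muscle. Its difference of −0.27 (ratio 0.832) stood at rank 330 from the lowest of 19936 genes. Of genes with like mean signal, taken as the same of 20 equal bins, 1.205% had a difference as low. Hmgcs1 was thus lower on the mutant array, second only to Idi1 among the 35 genes.

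The next 2 enzymes, which phosphorylate mevalonate in turn, hardly differed. Mvk, mevalonate kinase, had 7.62 in PGC-1β(i)skm-/- and 7.57 in control muscle, with a difference of 0.06. Pmvk, phosphomevalonate kinase, had 6.70 on both arrays. Both differences were smaller than the standard deviation over all genes. Mvd, which decarboxylates mevalonate diphosphate to isopentenyl diphosphate, had 7.04 in PGC-1β(i)skm-/- and 6.85 in control muscle. Its difference of 0.20 (ratio 1.15) was the highest of the 35 genes, and 6.52% of genes of like signal had a difference as high.

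Idi1, the isomerase of isopentenyl diphosphate and the enzyme just after Mvd, had the lowest difference of the group. Its log2 signals were 6.27 in PGC-1β(i)skm-/- and 6.72 in control muscle, a difference of −0.45 and a ratio of 0.733. It stood at rank 25 from the lowest of all genes, and 0.401% of genes of like signal were as low. A second probe set that lists the same transcripts had 6.29 in PGC-1β(i)skm-/- and 6.53 in control muscle, a difference of −0.24 (ratio 0.845). Both probe sets were lower on the mutant array, but only the first passed the ratio of 0.8, and the gap between them, 0.21, lay near the 90th percentile of such gaps. The annotation does not say whether one of them also matches a copy of the gene. The mean of both probe sets gave a difference of −0.34. Idi2, the related isomerase gene, was dim, with 4.42 in PGC-1β(i)skm-/- and 4.30 in control muscle.

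Fdps, the farnesyl diphosphate synthase downstream of Idi1, had 8.14 in PGC-1β(i)skm-/- and 8.33 in control muscle. Its difference of −0.18 (ratio 0.880) stood at rank 1018 from the lowest, with 6.62% of genes of like signal as low. Ggps1, which extends farnesyl diphosphate to the geranylgeranyl diphosphate used for protein prenylation and not for sterols, had 7.82 in PGC-1β(i)skm-/- and 7.75 in control muscle, a difference of 0.07. Thus 3 of the 7 genes were lower by at least 1.1-fold, against 10.1% of all genes. By the same measure 1 was higher, against 10.5% of all genes, and the median was −0.0023. The differences of these 7 genes had a standard deviation of 0.23, against 0.12 over all genes.

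**Figure D2:**
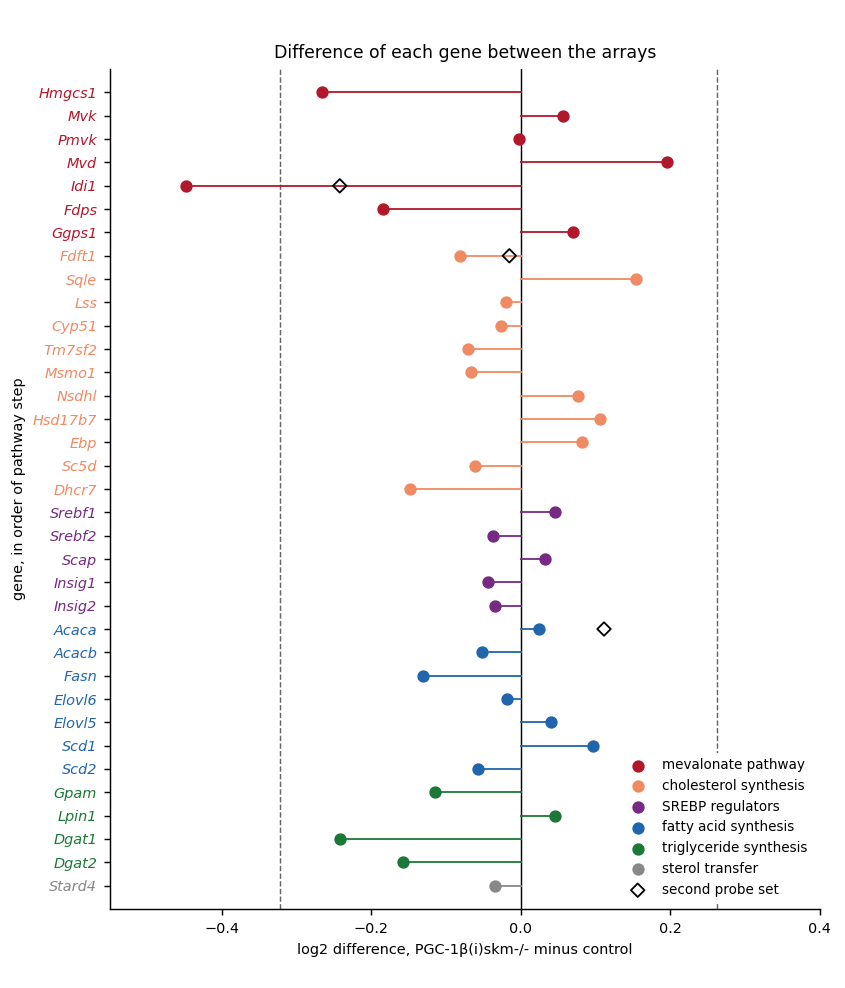
Difference in log2 signal between genotypes, mutant minus control (horizontal axis), of each of the 35 genes in order of pathway step (vertical axis), coloured by group, with diamonds for a second probe set of the same gene and dashed lines at ratios of 0.8 and 1.2. Idi1 (−0.45) alone lies past a dashed line, and its second probe set (−0.24) does not.

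The 11 genes of cholesterol synthesis from squalene onwards had a median difference of −0.03, between −0.15 and 0.15, and none passed a ratio of 0.8 or 1.2. Fdft1, squalene synthase, the first enzyme committed to sterols, had 10.93 in PGC-1β(i)skm-/- and 11.02 in control muscle, a difference of −0.08. Its second probe set differed by −0.02. Sqle, squalene epoxidase, known as a rate-limiting step, had 5.43 in PGC-1β(i)skm-/- and 5.27 in control muscle. Its difference of 0.15 was the second highest of the 35 genes, at a dim signal where 15.2% of genes were as high. Consecutive enzymes of the route, Fdft1 and Sqle, thus pointed in opposite directions, both within the spread of genes of like signal.

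Lss, lanosterol synthase, and Cyp51, the lanosterol demethylase, had differences of −0.02 and −0.03. The mean log2 signals of Sqle, Lss and Cyp51 were under 6, below the median of the arrays. Tm7sf2, a sterol reductase, and Msmo1, the sterol methyl oxidase, differed by −0.07 each. Nsdhl and Hsd17b7, which act in the same demethylation complex as Msmo1, differed by 0.08 and 0.11, and Ebp, a sterol isomerase, by 0.08. The enzymes of C4 demethylation therefore did not point one way. Sc5d, a desaturase, differed by −0.06. Dhcr7, which makes cholesterol from its last precursor, had 6.62 in PGC-1β(i)skm-/- and 6.77 in control muscle, the lowest difference of these 11 genes at −0.15 (ratio 0.902). Of genes of like signal, 10.5% were as low. Stard4, which carries sterols between membranes and is a known SREBP target, had 6.27 in PGC-1β(i)skm-/- and 6.31 in control muscle.

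The 5 SREBP regulators differed by between −0.04 and 0.05, with a median of −0.03. Srebf1, encoding SREBP-1, which is known mainly for fatty acid synthesis, had 7.70 in PGC-1β(i)skm-/- and 7.66 in control muscle. Srebf2, encoding SREBP-2, known mainly for sterol synthesis, had 7.63 in PGC-1β(i)skm-/- and 7.67 in control muscle, and a brighter probe set listed for Srebf2 and 3 other genes differed by 0.08. Scap had 8.23 in PGC-1β(i)skm-/- and 8.19 in control muscle. Insig1, itself a known SREBP target, had 7.81 in PGC-1β(i)skm-/- and 7.85 in control muscle, and Insig2 had 9.89 in PGC-1β(i)skm-/- and 9.92 in control muscle. The differences of Insig1 and Insig2 were 0.01 apart. Transcript signals do not show cleavage of the SREBP proteins, which was not measured.

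In fatty acid synthesis all 7 genes lay within 1.1-fold, as did 79.4% of all genes, and the median was −0.02. Acaca, the cytosolic acetyl-CoA carboxylase, had 7.53 in PGC-1β(i)skm-/- and 7.51 in control muscle, and its second probe set differed by 0.11. Acacb, the carboxylase at the outer mitochondrial membrane, whose malonyl-CoA restrains fatty acid import in muscle, had 10.44 in PGC-1β(i)skm-/- and 10.49 in control muscle. Fasn, fatty acid synthase, had 7.88 in PGC-1β(i)skm-/- and 8.01 in control muscle. Its difference of −0.13 (ratio 0.913) was the lowest of the 7, with 12.9% of genes of like signal as low. Elovl6 and Elovl5, elongases of saturated and of polyunsaturated fatty acids, differed by −0.02 and 0.04. Scd1 and Scd2, stearoyl-CoA desaturases, differed by 0.10 and −0.06, a gap of 0.15 between related genes that had no test.

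Of the 4 genes of triglyceride synthesis, 3 were lower on the PGC-1β(i)skm-/- array, against 50.2% of all genes, and the median was −0.14. Gpam, the mitochondrial acyltransferase that begins glycerolipid synthesis, had 10.99 in PGC-1β(i)skm-/- and 11.10 in control muscle, a difference of −0.12. Lpin1, the phosphatidate phosphatase of muscle and also known as a transcriptional coactivator, was the exception, with 11.55 in PGC-1β(i)skm-/- and 11.50 in control muscle. Dgat1 and Dgat2, unrelated enzymes that both attach the last fatty acid, were lower. Dgat1 had 7.70 in PGC-1β(i)skm-/- and 7.95 in control muscle, a difference of −0.24 (ratio 0.846) at rank 459 from the lowest, with 2.41% of genes of like signal as low. Dgat2 had 9.94 in PGC-1β(i)skm-/- and 10.10 in control muscle, a difference of −0.16 (ratio 0.896), with 6.72% of genes of like signal as low.

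**Figure D3:**
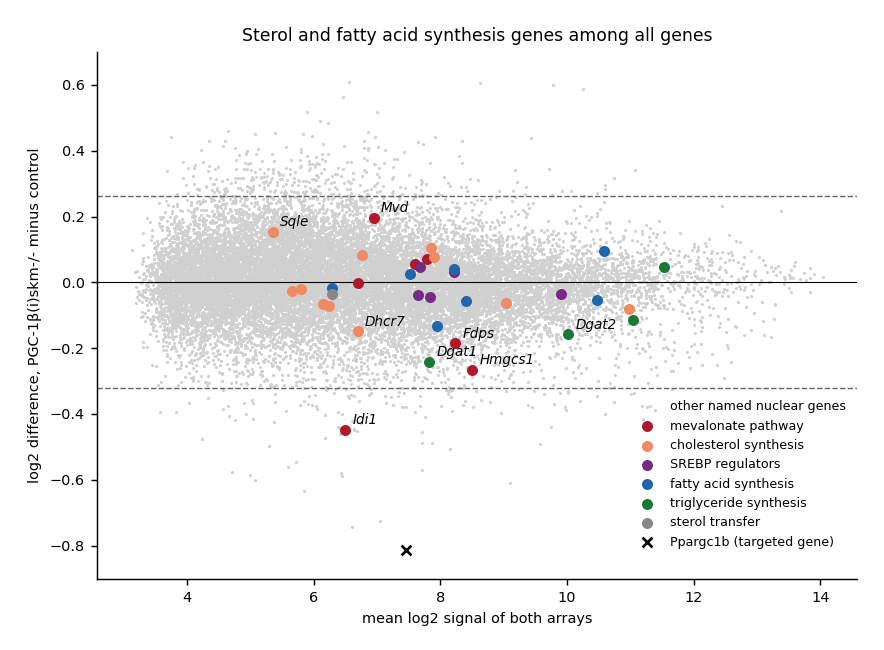
Difference in log2 signal between genotypes, mutant minus control (vertical axis), against the mean log2 signal of both arrays (horizontal axis) for all 19936 named nuclear genes (grey), with the 35 genes coloured by group, Ppargc1b as a cross and dashed lines at ratios of 0.8 and 1.2. Among the coloured points, Idi1 (−0.45) alone lies below the lower line, and Mvd (0.20) is the highest.

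Further genes of the same pathways were set in 7 lists, of which 65 of 75 genes were analysed here. Of the 65, 35 (53.8%) were below 0, against 50.2% of all genes, and their median was −0.01. A ratio of 0.8 or less was reached by 2, against 0.652% of all genes, and a ratio of 1.2 or more by 0, against 1.64%. One was Scd4, a desaturase gene, which was dim, with 4.15 in PGC-1β(i)skm-/- and 4.50 in control muscle (−0.35). The other was Ndufab1, with 10.03 in PGC-1β(i)skm-/- and 10.39 in control muscle (−0.36). Ndufab1 encodes the acyl carrier protein of mitochondrial fatty acid synthesis and is also a subunit of complex I. Its second probe set differed by −0.28.

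Mitochondrial fatty acid synthesis is a route separate from the cytosolic one and supplies the lipoic acid precursor. All 6 genes of its list analysed were below 0, against 50.2% of all genes, with a median of −0.12. For cytosolic fatty acid synthesis it was 4 of 7 genes with a median of −0.02. Among 24 other genes of fatty acid synthesis, 12 were below 0 and the median was 0.0014. The study also reported lower transcripts of many nuclear genes for mitochondrial energy metabolism. Being lower is thus not particular to this route. Besides Ndufab1, Cbr4, a reductase, had 9.07 in PGC-1β(i)skm-/- and 9.29 in control muscle (−0.22), and Mecr, the last reductase, had 7.95 in PGC-1β(i)skm-/- and 8.10 in control muscle (−0.15). Differences between these lists were not tested, and Cbr4 and Mecr were named after their values were seen.

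Medians of the other lists lay between −0.0037 and 0.02, apart from other sterol synthesis, where Idi2 (0.12) was the gene analysed. For 24 other genes of fatty acid synthesis the median was 0.0014, with 12 below 0 and 12 above. Acss2, which makes acetyl-CoA from acetate, differed by −0.25 and Mid1ip1, an activator of acetyl-CoA carboxylase, by −0.23. The second probe set of Mid1ip1 differed by −0.01. Scd3, a desaturase gene with a dim signal, went the other way, at 0.25. Acss2, Mid1ip1 and Scd3 were named after their values were seen. For other triglyceride synthesis the median was 0.0075, with Gpat3, an acyltransferase of the endoplasmic reticulum, at 0.21 and Mogat1, which was dim, at −0.07. Among partners of SREBP processing, the ubiquitin ligases Rnf139 and Rnf145 differed by 0.16 and 0.15. Of LXR receptors and targets with oxysterol synthesis, the cholesterol exporters Abca1 and Abcg1 differed by −0.14 and −0.05. In cholesterol uptake and transport, the sterol transfer genes Gramd1c and Gramd1b differed by 0.20 and −0.14. Gramd1c was dim, with 4.97 in PGC-1β(i)skm-/- and 4.77 in control muscle. None of these passed a ratio of 0.8 or 1.2.

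Because muscle holds fat, nerve and connective tissue cells, which also express lipid synthesis genes, their markers were measured on the same arrays. In whole muscle, fewer cells of a type and less RNA per cell cannot be told apart. Fibre markers identified both samples as skeletal muscle, with Ckm, creatine kinase, at 13.86 in PGC-1β(i)skm-/- and 13.82 in control muscle, and a median difference of 0.02 over 8 genes, with Myh1 at −0.16 and Mb at −0.06. Of 7 adipocyte markers, 3 were below 0, against 50.2% of all genes, and the median was 0.07. Their summed linear signal was 2996 in PGC-1β(i)skm-/- and 2879 in control muscle. The brightest of them, Fabp4, with 10.79 in PGC-1β(i)skm-/- and 10.72 in control muscle, weighs most in this sum. Among the 7 markers, Retn differed by 0.23, Lep by 0.21, and Adipoq, which defines fat cells, by −0.07. Brown adipocyte markers were dim, with Ucp1 at 4.76 in PGC-1β(i)skm-/- and 4.80 in control muscle, and Cidea at −0.10.

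All 4 Schwann cell and myelin markers analysed were below 0, against 50.2% of all genes, with a median of −0.10. Their summed linear signal was 2358 in PGC-1β(i)skm-/- and 2527 in control muscle. Of these, Mbp, a myelin protein, differed by −0.34, a ratio of 0.791, and Mag differed by −0.11. Of 5 endothelial markers, 4 were above 0, against 9886 of all 19936 genes. The median was 0.11, with Cdh5 at 0.16 and Tek at 0.14, while Tie1 was at −0.11. Their summed linear signal was 2828 in PGC-1β(i)skm-/- and 2620 in control muscle. All 5 macrophage markers and all 7 of fibroblasts and tendon were above 0, against the same 9886 of 19936 genes, with medians of 0.27 and 0.24. A ratio of 1.2 or more was reached by 3 of 5 macrophage markers and by 3 of 7 fibroblast and tendon markers. Of all genes, 1.64% reached it. Farthest from 0 were C1qa (0.37) and Mrc1 (0.31), and Fmod (0.32) and Tnmd (0.28). No marker had a signal of 0 on either array, since RMA gives every probe set a signal. The part of these cells in the values of Idi1, Hmgcs1, Dgat1 and the other genes was not tested.

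Promoters of the group were compared with those of other measured genes. RefSeq windows were at hand for 27 of the 35 genes, the others being Dgat1, Dgat2, Fdft1, Fdps, Scd1, Scd2, Sqle and Stard4. The CCAAT box was found in a window of 23 of 27 genes (85.2%), against 41.7% of 15614 measured genes with a window. The GC box was found in 19 of 27 (70.4%), against 52.9%, and the E-box in 6 of 27 (22.2%), against 9.50%. The genes with an E-box were Dhcr7, Elovl5, Hsd17b7, Insig1, Sc5d and Scap, whose differences lay between −0.15 and 0.11. The sterol regulatory element core was found in 1 of 27 (3.70%), Hmgcs1, against 1.40%. Letters were read on both strands and the shares had no test. CCAAT boxes stood in the windows of Hmgcs1 and Idi1, which were lower, and in that of Mvd, which was higher.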

How the data were processed

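Gene expression was measured on Affymetrix Mouse Gene 1.0 ST arrays, 1 per genotype. The authors labelled cDNA from 150 ng of RNA, read the scans in GeneChip Command Console 3.2, and obtained log2 signals per probe set by RMA (background correction, quantile normalization and probe summary) in Expression Console 1.1. These deposited log2 values were used as they are. A shift common to every gene is hidden by this normalization, and RMA compresses differences of dim probe sets. The sources used here do not name the genome build of the probe sets.

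Of 35556 probe sets, 21789 had 1 symbol in the platform annotation, 1621 several and 12146 none listed there. Symbols were updated by Entrez ID through RefSeq (21698 matched). The probe set of highest mean signal stood for each gene. Ratios of 0.8 and 1.2 follow the methods of the study. The 35 genes and all lists were chosen with earlier results of these data known. All 35 genes were named. Of each further list, genes past a ratio or else the 2 farthest from 0 were named, and of each marker list the 2 farthest from 0. Named outside this rule were Ckm, Adipoq and Ucp1, as defining markers, and Tie1, the endothelial marker below 0. So were Fabp4, the brightest adipocyte marker, and genes said to be named after their values were seen. No test was made. The calculation was tested on simulated data with planted differences of 1 on the log2 scale, in either direction. These are larger than any difference of the 35 genes, so the test does not show how well smaller differences are found. Python 3.11.15, pandas 2.3.3, numpy 2.4.6, statsmodels 0.14.6 and matplotlib 3.10.9 were used. Alternatives were other probe set rules, signal filters at 6 and 7, loess (span 0.3) or median subtraction, and other ratios.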

Additional observations from a re-analysis of the deposited data

How the results depend on the processing

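No paired analysis was possible because each genotype has 1 array, and for the same reason no array could be left out. The count of genes at a ratio of 0.8 or less, 1 with the settings of the report, was 0 with the probe set of lowest signal, 0 among the 23 genes whose signal averaged 7 or more (Idi1 is then left out), 0 at 1.5-fold, 2 at a ratio of 1/1.2 and 6 at 1.1-fold. The count of higher genes, 0 in the report, was 2 at 1.1-fold. The count below 0 was 13 of 23 genes at a signal of at least 7. All 8205 genes at that signal had a median of −0.0132, and 65 of them reached a ratio of 0.8 or less. With the probe set of lowest signal, 135 of 19936 genes reached it. The shares of all genes below 0 at that signal, and past 1.5-fold, were not counted. At a signal of at least 7 the mevalonate pathway had a median of −0.0637 over 4 genes. The median of the SREBP regulators was 0.0327 with probe sets of several genes included, where Srebf2 was at 0.08. Values were taken as unchanged within 0.05 on the log2 scale. The median over the 35 genes lay between −0.0373 and −0.0262 under all 7 alternatives of probe set, filter and centring. These values are within the limit, but the limit is wider than the median itself. Of 230 values of single genes under these alternatives, 225 stayed within the limit of 0.05. Most of them could hardly move, so this count does not measure precision. The signal filters leave a gene's value as it is, and median subtraction shifts every gene alike. Only Idi1, Fdft1 and Acaca had a second probe set of their own. Idi1 moved to −0.34 and −0.24, Fdft1 to −0.02, Acaca to 0.11 and Srebf2 to 0.08. Among other genes and markers, Idi2 moved to 0.05, the adipocyte median to 0.01 and the Schwann cell median to −0.21, the last without dim genes. Dim signals limit Sqle, Lss, Cyp51, Scd3, Scd4, Idi2, Mogat1 and Gramd1c, and the markers Lep, Mag, Ucp1 and Cidea.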
